A study of Mus musculus with 77 samples.

Results

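The genes described here encode the nuclear subunits of the mitochondrial respiratory chain and of ATP synthase, measured in the retina of mice with oxygen-induced retinopathy (OIR). Members were taken by symbol from the transcripts assigned to the probes, as genes of the Nduf (A, B, C, S and V), Sdh, Uqcr, Cox (from Cox4 to Cox8) and Atp5 families, without Ndufa4l2 and without the Ndufaf assembly factors. The rule found 83 genes among 21154 genes with a symbol on the array, and no measured value entered it. Of the 83 genes, 35 encode subunits of complex I (7 core and 28 accessory subunits), 4 of complex II, 8 of complex III, 18 of complex IV (11 common subunits and 7 tissue isoforms) and 17 of ATP synthase (5 of the catalytic head and 12 of the stalk and membrane part), and Cox7a2l encodes a linker of supercomplexes. Each gene is given by its brightest probe.

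The respiratory chain passes electrons from NADH and succinate through complexes I to IV to oxygen and pumps protons as it does so, and ATP synthase uses the proton gradient to make ATP. Most subunits are encoded in the nucleus and are made in a ratio set by assembly of the complexes, while a few complex IV subunits exist as isoforms that differ between tissues or with oxygen supply. The retina uses much oxygen, and its photoreceptors hold densely packed mitochondria in their inner segments.

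Retinal RNA from 77 C57BL/6 mice was hybridised on two-colour arrays, 1 mouse per array with both retinas pooled, against a universal mouse reference RNA. Litters with their dams were placed on postnatal day 7 (P7) in 75% oxygen, giving the OIR mice, or in 21% oxygen, giving the control mice, and those not examined on P12 were then kept in room air. Retinas were taken on P12 from 13 OIR and 12 control mice, on P17 from 13 OIR and 12 control mice and on P28 from 13 OIR and 14 control mice. Whole litters were assigned to a condition, littermates share a dam, and the labels do not tie mice to litters, so the spread between mice may be smaller than that between litters. All values are log2 ratios of retina to reference, so a value of 0 means equal signal in both, and they can be compared between mice for a gene but not between genes. The direction was set against the dye named in the labels. The labels give Cy5 as the retinal dye, but the rod genes Gnat1, Sag and Pde6b were brighter in Cy3 on all 77 arrays, by at least 4.46, 4.18 and 4.22 on the log2 scale, and Cy3 was therefore taken as retina throughout.

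Of the 83 genes, 79 were well above background on all 77 arrays and no member spot was saturated. The exceptions were complex IV tissue isoforms: Cox8b was well above background on 68 arrays, Cox6a2 on 39, Cox7b2 on 1 and Cox8c on 0. The last 2 are counted among the 83 and enter the medians over members, but could not be read singly, and they are left out of plots of single genes. Arrays were scanned on 4 days, and those of the last scan day (scan day 4 below) stood apart, with a median of 32076 probes well above background against 15989 to 20492 on the other days. Scan day was unevenly spread over the groups: scan day 4 held 2 of 13 OIR and 5 of 12 control mice of P17, but 11 of 13 OIR and 9 of 14 control mice of P28. Among the 50 mice of P12 and P17, with group in the fit, 36 members were higher and 7 lower on scan day 4 than on the other days, against 24.4% and 19.4% of all probes. Of the genes named below, those that differed most were Ndufa4 (log2 difference 1.23), Cox6a2 (-0.99), Cox8a (-0.60), Ndufa3 (-0.58), Cox8b (0.57), Sdha (0.53) and Cox4i2 (-0.50). Values within scan days, or without scan day 4, are given below for several of their results.

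The stretch of DNA before a gene is where transcription factors bind, and respiratory chain promoters are known for sites of NRF1, ETS family factors and YY1, which the motif search below covered together with the core of the hypoxia response element. Promoter windows from RefSeq (GRCm38.p6, 250 bases before to 50 after the transcript start) were used for 68 members, and for 27025 genes in all. Both strands were searched for exact letters. The NRF1 motif was in 17 of the 68 members (25% against 5.19% of all genes), the ETS motif CCGGAAG in 17 (25% against 9.93%), the YY1 motif AAGATGGC in 10 (14.7% against 3.19%) and the hypoxia response core ACGTG in 17 (25% against 21.8%). A match is a description of letters in a window, not a shown binding site. Among the 12 genes that were lower in OIR retinas on P17 (below), 9 had a window, of which 1 held the NRF1 motif, 0 the ETS motif, 1 the YY1 motif and 4 the hypoxia response core (Atp5g3, Atp5pb, Cox5a and Ndufa1).

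The windows of 3 of these 4 genes are shown because they carry the hypoxia response core and rank among the 5 with the largest called fall on P17. Capitals mark the searched motifs: in Cox5a, at chr9:57520982-57521281 on the plus strand, 1 hypoxia response core; in Atp5g3, at chr2:73911277-73911576 on the minus strand, CACGTG, which reads as the core on both strands, and the NRF1 motif; in Atp5pb, at chr3:105959214-105959513 on the minus strand, CACGTG and, on the reverse strand, the YY1 motif. Sequences run 5′ to 3′ on the strand of the gene.
Cox5a: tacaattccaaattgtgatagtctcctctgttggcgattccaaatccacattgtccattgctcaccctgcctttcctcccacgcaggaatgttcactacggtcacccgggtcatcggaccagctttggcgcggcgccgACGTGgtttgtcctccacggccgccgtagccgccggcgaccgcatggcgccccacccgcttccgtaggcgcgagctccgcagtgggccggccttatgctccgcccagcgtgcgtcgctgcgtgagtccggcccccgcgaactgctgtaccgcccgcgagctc
Atp5g3: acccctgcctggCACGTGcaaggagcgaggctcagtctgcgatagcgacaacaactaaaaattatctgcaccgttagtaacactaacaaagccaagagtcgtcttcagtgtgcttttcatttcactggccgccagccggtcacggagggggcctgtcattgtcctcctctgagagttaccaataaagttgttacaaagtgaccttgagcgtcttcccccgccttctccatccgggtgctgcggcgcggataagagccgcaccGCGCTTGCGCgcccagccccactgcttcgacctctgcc
Atp5pb: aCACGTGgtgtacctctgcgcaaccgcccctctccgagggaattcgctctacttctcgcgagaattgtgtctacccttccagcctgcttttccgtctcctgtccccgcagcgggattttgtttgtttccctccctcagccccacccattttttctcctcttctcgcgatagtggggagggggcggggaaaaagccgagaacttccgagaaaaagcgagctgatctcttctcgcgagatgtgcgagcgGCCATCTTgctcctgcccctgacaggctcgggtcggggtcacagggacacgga
The other 2 genes among the 5 with the largest called fall, Uqcrfs1 and Ndufc2, held none of the 4 motifs in their windows.

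On P12, at the end of the oxygen exposure, no respiratory chain gene differed between OIR and control retinas by limma with Benjamini-Hochberg adjustment over 55681 probes. Of all probes 0% were called higher and 0.0233% lower. An unadjusted p under 0.05 was reached by 4 of the 83 members, and its share over all probes was not counted. The log2 fold changes (OIR over control) ran from -0.31 (Cox4i2) to 0.23, with a median of 0.03 over members and of -6e-04 over all probes. The median log2 ratio over all members was taken for each mouse, as a description. It ran from 0.01 to 0.60 in OIR mice of P12 (median 0.35) and from 0.13 to 0.69 in their controls (median 0.21), so the groups overlapped.

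On P17, after return to room air, 12 members were lower in OIR than in control retinas and 0 were higher. That is 14.5% of members, against 0.33% of all probes called lower and 0.803% called higher, and against 1.35% called lower and 2.55% higher of the 12175 probes well above background on all arrays. The fold change was negative for 72 of the 83 members (72 of 81 without both at background). Its median was -0.18 over members and 0.001 over all probes. An unadjusted p under 0.05 was found for 42 members, and the share of all probes at that level was not counted. The falls were small, none over 1.45-fold among those called. In whole retina, fewer cells of a type cannot be told apart from less RNA per cell.

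**Figure D1:**
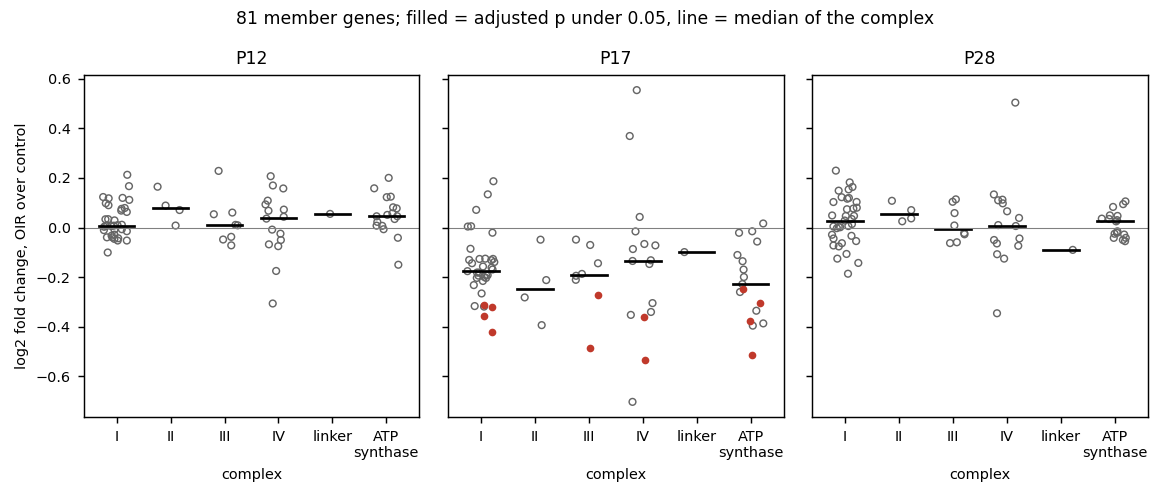
Log2 fold change of OIR over control retinas (vertical axis) for 81 of the 83 genes (without Cox7b2 and Cox8c, which lay at background), by complex (horizontal axis), on P12, P17 and P28. Filled red points passed the limma test at an adjusted p under 0.05 and lines are medians of each complex. On P12 and P28 no point is filled and the medians lie near 0, while on P17 72 genes lie below 0 and 12 are filled.

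ATP synthase held 4 of the 12 calls among its 17 genes. Atp5g3 encodes the c subunit, whose copies form the rotating ring in the membrane. Its log2 ratio ran from -1.02 to -0.18 in the 13 OIR mice (median -0.75) and from -0.49 to 0.09 in the 12 control mice (median -0.22). Of the OIR mice, 11 lay below the lowest control, and 1 lay above the control median. The log2 fold change was -0.51 (SE 0.09, adjusted p = 0.00154), a 1.43-fold fall. Atp5pb, subunit b of the peripheral stalk, ran from -1.13 to -0.32 in OIR mice (median -0.88) and from -0.72 to 0.02 in controls (median -0.34). Of the 13 OIR mice, 7 lay below all controls, and the log2 fold change was -0.38 (SE 0.09, adjusted p = 0.0229), while a further probe of the gene gave -0.31 (adjusted p = 0.0515). The catalytic beta subunit, Atp5b, ran from 0.03 to 0.66 (median 0.36) in OIR and from 0.46 to 0.77 (median 0.60) in control mice, with 10 OIR mice below the lowest control. Its log2 fold change was -0.25 (SE 0.06, adjusted p = 0.0309). Atp5mpl, a small proteolipid of the membrane part, gave -0.31 (SE 0.07, adjusted p = 0.0164). By part, 1 of 5 genes of the catalytic head and 3 of 12 of the stalk and membrane part were lower, with median log2 fold changes of -0.25 and -0.21.

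In complex I, which takes electrons from NADH, 4 of 35 genes were lower and 30 of 35 had negative fold changes. The lowest adjusted p of all members was that of Ndufs1, a core subunit that carries iron-sulfur clusters. Its log2 ratio ran from -0.08 to 0.37 in OIR mice (median 0.08) and from 0.25 to 0.60 in controls (median 0.43). The 13 OIR mice were all under the median of the controls, and 10 were under every control. The log2 fold change was -0.31 (SE 0.05, adjusted p = 7.52e-04), a 1.24-fold fall. Among accessory subunits, Ndufb3 ran from 0.24 to 0.55 in OIR mice (median 0.36) and from 0.50 to 1.002 in controls (median 0.63), and again 10 OIR mice lay below all controls. Its log2 fold change was -0.32 (SE 0.06, adjusted p = 0.0025). Ndufc2 gave -0.42 (SE 0.10, adjusted p = 0.0365) and Ndufa1 -0.36 (SE 0.08, adjusted p = 0.032), with 8 and 7 OIR mice below every control. The core subunits Ndufv1 (-0.19), Ndufs8 (-0.17), Ndufv2 (-0.13), Ndufs3 (-0.02) and Ndufs7 (0.005) did not pass the test, and the direction of the last 2 turned under other processing (given with the processing results).

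Complex III, which passes electrons from ubiquinol to cytochrome c, had 2 of 8 genes lower and 8 of 8 with a negative fold change. Uqcrfs1 encodes the Rieske iron-sulfur protein. It ran from -1.21 to -0.42 in OIR mice (median -0.94) and from -0.79 to 0.03 in controls (median -0.42), with a log2 fold change of -0.49 (SE 0.11, adjusted p = 0.0152). Each of the 13 OIR mice was under the median of the controls. Uqcrc2, a core protein of the complex, gave -0.27 (SE 0.06, adjusted p = 0.0297), with 11 OIR mice below all controls. In complex II, which oxidises succinate, 0 of 4 genes were called, although all 4 fold changes were negative, from -0.39 (Sdha, the flavoprotein) to -0.05, and Sdhb gave -0.21.

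Complex IV, cytochrome c oxidase, showed 2 calls among its 11 common subunits, all 11 with negative fold changes (median -0.15), and no call among the 5 tissue isoforms that could be measured, whose values follow below. Cox5a had the largest called fall of the 83 genes, with a log2 ratio from -1.28 to -0.10 in OIR mice (median -0.87) and from -0.73 to 0.24 in controls (median -0.31). Its mice were also widely spread, and 2 OIR mice lay above the control median. The log2 fold change was -0.54 (SE 0.13, adjusted p = 0.0369), a 1.45-fold fall. The limma call was lost with slide as a block (adjusted p = 0.0707) and with scan day as a block (adjusted p = 0.0983). It was also lost without scan day 4 (adjusted p = 0.0904) and with other groups in the fit (adjusted p = 0.244). Cox7c gave -0.36 (SE 0.07, adjusted p = 0.00993), but its other probes gave -0.20 (adjusted p = 0.6) and -0.01, the latter from a probe well above background on 25 of 77 arrays. The common subunits Cox7a2 (-0.30), Cox4i1 (-0.13), Cox6b1 (-0.13), Cox8a (-0.09) and Cox6a1 (-0.07) did not pass the test. Ndufa4, a subunit first assigned to complex I and now to complex IV, had the most negative fold change of all, -0.70, and was not called (SE 0.29, adjusted p = 0.377). Its values ran from 0.25 to 2.24 in OIR mice (median 0.50) and from 0.82 to 3.00 in controls (median 1.05), and the highest in both groups came from scan day 4. Without that day the fold change was -0.45 (adjusted p = 0.0465).

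**Figure D2:**
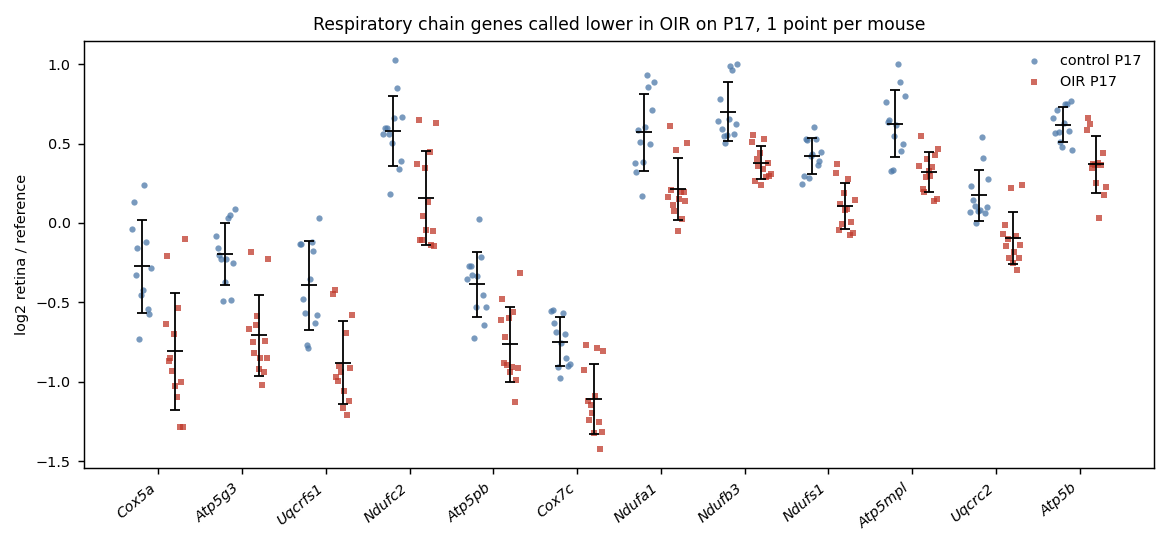
Log2 ratio of retina to reference (vertical axis) on P17 for the 12 genes lower in OIR retinas (horizontal axis, ordered by fold change), 1 point per mouse with the mean and SD of 12 control (blue circles) and 13 OIR mice (red squares). The group means are apart for each gene, while the mice of both groups overlap for each gene as well.

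Cox4i2 stood apart from the common subunits in direction. It encodes the isoform of subunit IV that is known to be induced by low oxygen and to replace the ubiquitous Cox4i1. On P12 it ran from 0.26 to 1.30 in OIR mice (median 0.86) and from 0.25 to 1.52 in controls (median 1.27). On P17 it ran from 0.66 to 1.98 in OIR mice (median 1.49) and from 0.20 to 1.31 in 11 controls (median 1.05, 1 outlier spot left out). On P28 it ran from 0.28 to 1.20 (median 0.38) and from 0.06 to 1.41 (median 0.47). The OIR mice were thus lower than controls by the median on P12, higher on P17 and close on P28, with overlap on each day. The P17 log2 fold change was 0.55 (SE 0.15, adjusted p = 0.0963), below the threshold. With slide as a block it was 0.53 (adjusted p = 0.0138), without scan day 4 it was 0.56 (adjusted p = 0.00342), and within scan days 1, 3 and 4 it was 0.50, 0.53 and 0.01. The remaining isoforms gave fold changes of 0.37 (Cox6a2), 0.04 (Cox7a1), -0.02 (Cox6b2) and -0.35 (Cox8b), none called. Without scan day 4 these were 0.06 (Cox6a2), 0.02 (Cox7a1), -0.02 (Cox6b2) and -0.12 (Cox8b).

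Scan day moved with the P17 groups, and the 12 falls were therefore also read within each day. All 12 had the same sign within scan days 1, 3 and 4. They were called in these same mice, so their sign within a day is no independent check. The median over members within those days was -0.12, -0.15 and -0.08. Scan day 3, with 6 OIR and 3 control mice, gave 16 members lower, while scan days 1 and 4 gave 0. The share of all probes called within a day was not counted. With scan day as a block 8 members were called, 7 of them among the 12, and without scan day 4 there were 6 lower and 1 higher, 5 of the 7 among the 12 (and Cox4i2 higher). Across 12 alternative ways of processing and fitting (quantile normalisation of average brightness, which leaves log ratios as they are, not counted), Atp5g3 and Ndufb3 passed in all 12, Ndufs1 and Ndufa1 in 11, Atp5pb in 10 and the other 7 in 4 (Atp5b) to 9.

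**Figure D3:**
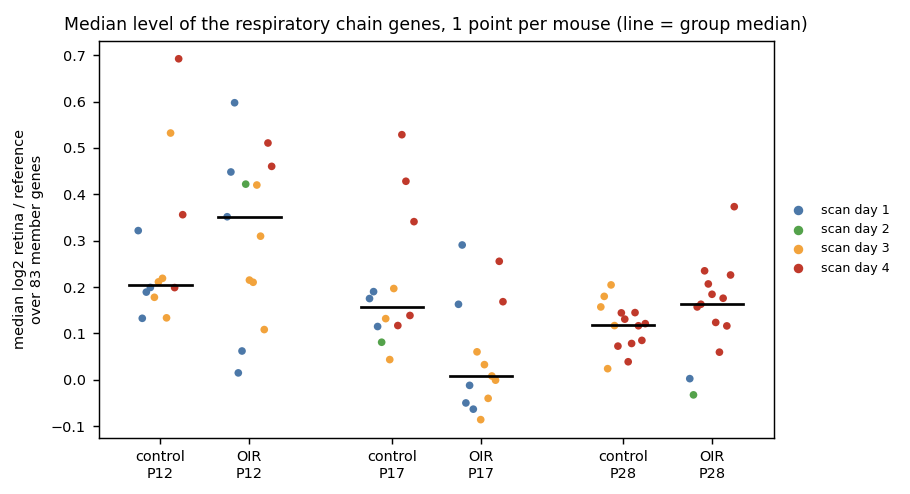
Median log2 ratio over the 83 genes in each mouse (vertical axis), by group (horizontal axis), coloured by scan day, with a line at the median of each group. On P17, 8 of 13 OIR mice lie below the lowest control, 9 lie below the control median and the others above it. The OIR mice of P17 run from -0.09 to 0.29 (median 0.01) and their controls from 0.04 to 0.53 (median 0.16), so the groups overlap. The highest mouse of the P12 controls and that of the P17 controls are from scan day 4.

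On P28 no member differed between OIR and control retinas by limma, and 0.0557% of all probes were called higher and 0.00539% lower. An unadjusted p under 0.05 was found for 7 members, again without a count over all probes. The median over members was 0.01. The largest differences were in Cox8b, the isoform of heart and muscle (0.50, adjusted p = 0.655), and Cox8a (-0.35, adjusted p = 0.659). Within scan day 4, with 11 OIR and 9 control mice, they were 0.43 and -0.08. The per-mouse median ran from -0.03 to 0.37 in OIR mice (median 0.16) and from 0.02 to 0.20 in controls (median 0.12).

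Whether the OIR effect itself changed between days was tested in 1 fit over the 6 groups. From P12 to P17, the effect fell for Ndufb3 (by 0.39 on the log2 scale, SE 0.09, adjusted p = 0.00986) and Ndufs1 (by 0.38, SE 0.08, adjusted p = 0.00807) and rose for Cox4i2 (0.86, SE 0.21, adjusted p = 0.0301). These were 2 of 83 members lower and 1 higher, against 0.0431% and 0.436% of all probes, and 75 members had a negative estimate. Without scan day 4 Ndufb3 (-0.31, adjusted p = 0.256) and Ndufs1 (-0.32, adjusted p = 0.279) did not pass, and Cox4i2 did not pass with no background subtraction, an offset of 0, the deposited ratio or the retina channel alone (0.85 to 0.96). From P17 to P28, 0 members passed in either direction (0.0341% of probes higher, 0.244% lower). Of the 83 estimates 69 were positive, with a median of 0.20. An unadjusted p under 0.05 was found for 33 members, without a count over all probes.

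**Figure D4:**
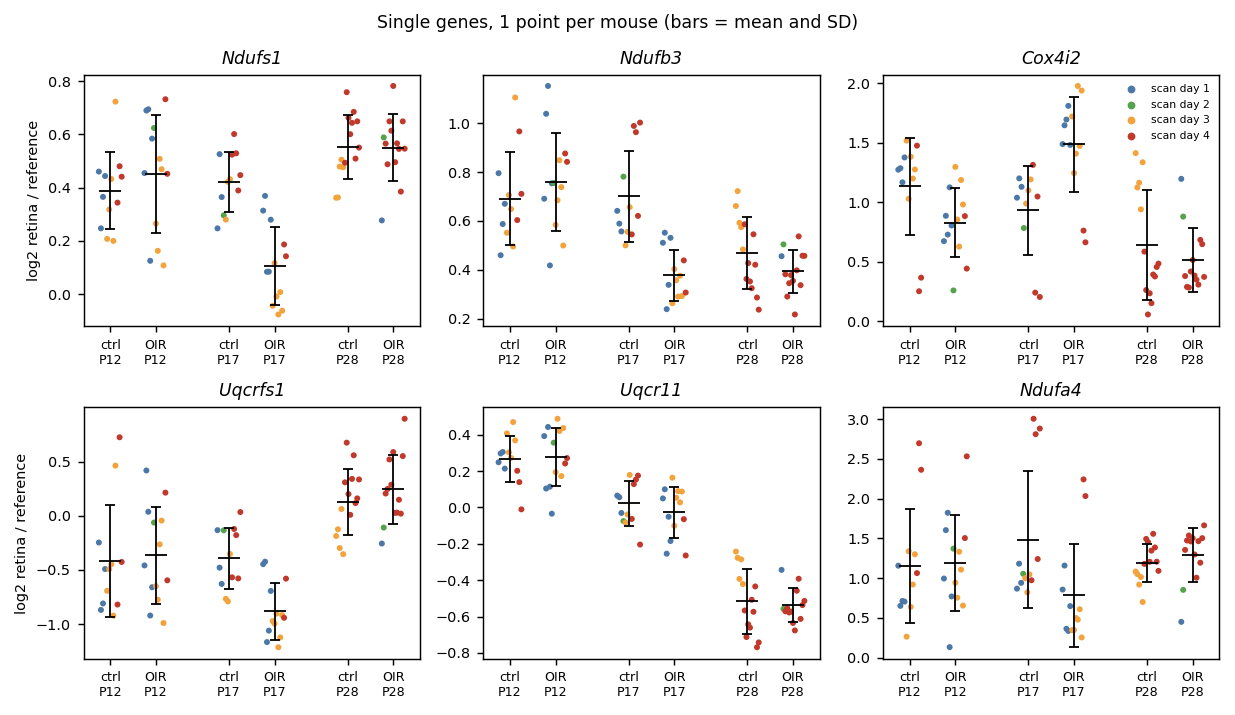
Log2 ratio of retina to reference (vertical axes, each with its own range) of 6 genes in all mice by group (horizontal axes), with mean and SD, coloured by scan day. Ndufs1 and Ndufb3 are lower in OIR than control mice on P17, Cox4i2 is higher on P17 except for OIR mice of scan day 4, Uqcrfs1 is higher and Uqcr11 lower on P28 than on P17 in both conditions, and the highest Ndufa4 values of P12 and P17 are from scan day 4.

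From P12 to P17 the median change over members was -0.08 in control and -0.30 in OIR retinas, and the difference between both, tested gene by gene above, passed for 3 members. In controls 5 members fell and 0 rose (6.02% of members, against 0.659% of all probes lower and 0.623% higher, or 2.67% and 1.95% of probes well above background on all arrays): Ndufv3 (-0.34, adjusted p = 0.00606), Cox6a1 (-0.29, adjusted p = 0.0254), the complex I core subunit Ndufs3 (-0.26, adjusted p = 0.00735), Cox5b (-0.25, adjusted p = 0.00139) and Uqcr11 (-0.25, adjusted p = 0.00701). A further probe of Ndufv3 gave 0.09 (adjusted p = 0.852), so its fall rests on 1 probe. The call of Cox6a1 was lost without scan day 4 (adjusted p = 0.141), where the other 4 passed, and 1 of the 5 passed in the retina channel alone.

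In OIR mice, over the same days, 38 members fell and 2 rose (45.8% and 2.41% of members, against 1.49% and 1.94% of all probes, and against 5.79% and 6.13% of probes well above background on all arrays). The median log2 change over all probes was -6e-04. Falls were found in 11 of 17 ATP synthase genes, 14 of 35 complex I genes, 1 of 4 complex II genes, 5 of 8 complex III genes and 7 of 11 common complex IV genes. The OIR mice of P17 are those of the comparison above, and the 2 comparisons share them.

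Cox6c, a common complex IV subunit, ran from 0.56 to 1.43 in OIR mice of P12 (median 0.92) and from 0.06 to 0.69 in those of P17 (median 0.25). Of the 13 mice of P17, 12 lay below every mouse of P12, and the change was -0.61 (SE 0.08, adjusted p = 3.99e-08). In controls Cox6c ran from 0.49 to 1.08 on P12 and from 0.18 to 1.21 on P17, a change of -0.23 (adjusted p = 0.249). Further large falls were in Atp5mpl (-0.66, SE 0.09, adjusted p = 2.43e-07), Sdhd, a membrane anchor of complex II (-0.64, SE 0.12, adjusted p = 7.6e-05), Ndufa1 (-0.62, adjusted p = 9.28e-07) and Atp5g3 (-0.60, adjusted p = 0.00159). Both rises were in complex IV isoforms. Cox4i2 rose by 0.66 (SE 0.15, adjusted p = 0.00152), with 10 of 13 mice of P17 above every mouse of P12. Within scan days 1, 3 and 4 its change was 0.78, 0.64 and 0.05. Cox7a1, the isoform of heart and muscle, rose from a range of -0.81 to -0.36 (median -0.48) to a range of -0.34 to -0.02 (median -0.26), a change of 0.26 (SE 0.05, adjusted p = 5.5e-04) without overlap of the groups. Its change in controls, 0.19 (adjusted p = 0.0693), was close to it, and the difference between both was 0.07 (SE 0.08, adjusted p = 1).

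Within scan days 1, 3 and 4 all 40 called members kept their sign, with medians over the 83 members of -0.27, -0.31 and -0.24. The 40 were called in these same mice, so their sign within a day is no independent check. Without scan day 4 there were 47 lower and 2 higher, including the 40. With slide as a block 58 members were lower and 2 higher, again including the 40. The shares of all probes called in these 2 fits were not counted, so the larger counts cannot be set against them. All 13 OIR mice of P17 had a per-mouse median below the median of OIR mice of P12, from -0.09 to 0.29 (median 0.01) against 0.01 to 0.60 (median 0.35).

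Between P17 and P28 members moved in both directions, and most mice of P28 were scanned on scan day 4. In controls 10 members rose and 23 fell (12% and 27.7%, against 7.97% and 5.38% of all probes, or 16.1% and 13.8% of probes well above background on all arrays). In OIR mice 31 rose and 21 fell (37.3% and 25.3%, against 21.2% and 19.4% of all probes, or 36.3% and 32.1% of probes well above background on all arrays), shares near or below those of bright probes. With slide as a block the counts were 9 up and 28 down in controls and 16 up and 10 down in OIR mice, all 26 of the latter among the 52. Within scan day 4 all 33 called members kept their sign in controls and 47 of 52 in OIR mice, and within scan day 3, in controls, 28 of 33. These counts also rest on mice that gave the calls.

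The Rieske protein gene Uqcrfs1 ran in OIR mice from -1.21 to -0.42 on P17 (median -0.94) and from -0.26 to 0.89 on P28 (median 0.20). Uqcrfs1 rose by 0.52 (adjusted p = 0.00813) in controls and by 1.12 (adjusted p = 3.51e-09) in OIR mice, where all 13 mice of P28 lay above every mouse of P17. Within scan day 4 its changes were 0.58 and 1.08. Further large rises in controls were in Ndufa10 (0.68), Ndufs8 (0.51) and Ndufa11 (0.50), and in OIR mice in Sdha (1.002), Ndufa11 (0.93) and Ndufa10 (0.92). Of these, Sdha and Ndufa11 also differed by scan day (0.53 and 0.39), and within scan day 4 their values in OIR mice were 0.45 and 0.58.

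Uqcr11, a small subunit of complex III, fell in controls from a range of -0.20 to 0.18 (median 0.01) to a range of -0.77 to -0.24 (median -0.54). All 14 mice of P28 lay below every mouse of P17, the change was -0.54 (adjusted p = 5.78e-11), and it was -0.34 and -0.66 within scan days 3 and 4. Falls in controls were found also for Atp5e, the epsilon subunit of the catalytic head (-0.49, adjusted p = 8.34e-08), and Ndufb9 (-0.48, adjusted p = 5.8e-08), with changes of -0.70 and -0.64 within scan day 4. In the retina channel alone the change of Ndufb9 in controls was -0.19 and not called (limma adjusted p = 0.119). Uqcr11, Atp5e and Ndufb9 differed by -0.08, 0.06 and -0.01 between scan day 4 and the other days. By contrast, genes with the largest falls in OIR mice were also those lower on scan day 4. Cox6a2 (-1.06), Ndufa3 (-1.04), Cox4i2 (-0.97), Cox8a (-0.80) and Ndufb7 (-0.60) had values of -0.49, -0.62, -0.63, -0.46 and -0.29 with slide as a block, and of -0.45, -0.37, -0.29, -0.20 and -0.28 within scan day 4, where 2 mice of P17 stood against 11 of P28. For Cox6a2, 6 of 13 OIR mice of P17 and 11 of 13 of P28 had a spot well above background, and in the retina channel alone its change was 0.05 (adjusted p = 0.62) and with the deposited ratio -0.02 (adjusted p = 0.959). Cox8a in OIR mice changed by -0.11 in the retina channel alone (adjusted p = 0.337) and by -0.11 with the deposited ratio (adjusted p = 0.359).

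**Figure D5:**
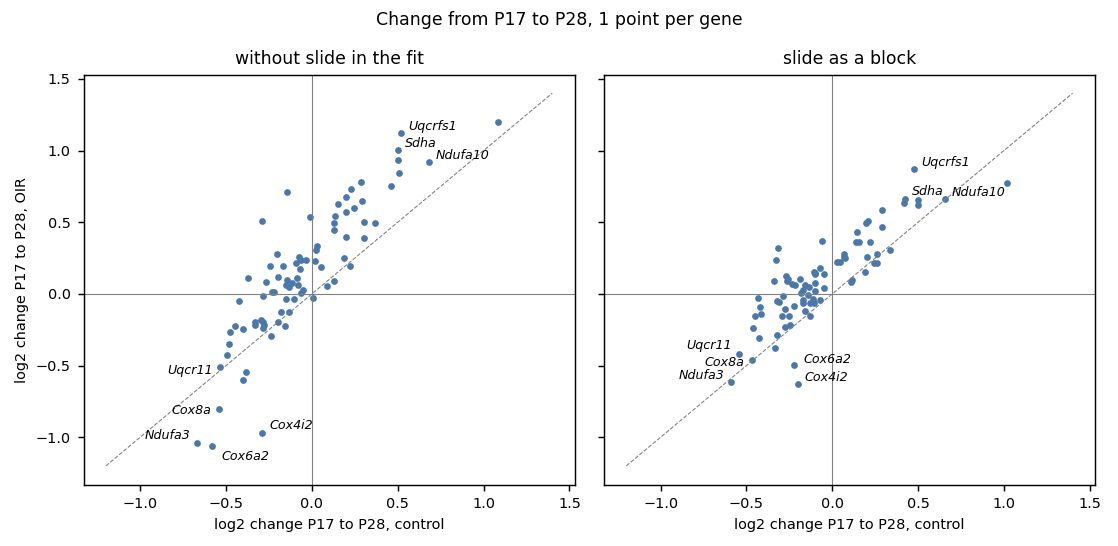
Log2 change from P17 to P28 of 81 genes (without Cox7b2 and Cox8c) in control mice (horizontal axis) and OIR mice (vertical axis), without slide in the fit (left) and with slide as a block (right), with the line of equal change dashed. With slide as a block the largest OIR changes shrink, as for Cox4i2 from -0.97 to -0.63.

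By complex, in controls 2 of 7 complex I core genes rose and 0 fell, and 3 of 28 accessory subunits rose and 8 fell. In complex II 2 of 4 rose and 0 fell (2 and 1 with slide as a block), and in complex III 2 of 8 rose and 4 fell. Of 11 common complex IV genes 0 rose and 4 fell. In ATP synthase 1 of 5 genes of the catalytic head rose and 1 fell, and 0 of 12 of the stalk and membrane part rose and 6 fell. Probes of 1 gene did not always move together: Ndufv3, whose named probe fell by 0.38 in controls and 0.55 in OIR mice, had a further probe that rose by 0.35 (adjusted p = 9.18e-05) and 0.34 (adjusted p = 2.16e-05), and further probes of Atp5j2 (0.48) and Uqcrq (0.33) rose in OIR mice while the named ones fell. These 3 genes are named for that disagreement, which was seen in the data. The reference RNA is the same on all arrays, but its channel alone called 3536 of 55681 probes between P17 and P28 in OIR mice. These included 9 members (7 up and 2 down, Cox4i2 among them). In each of the other 8 comparisons the channel called fewer probes and 0 members. How far these differences in the reference entered the ratios of OIR mice between P17 and P28 was not tested.

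Other genes of mitochondrial respiration were read from fixed lists, each given as counts on P17, OIR against control. Of 46 assembly factors, which build the complexes but are not part of them, 0 passed in either direction (median -0.04). From P12 to P17 in OIR mice, when 38 of 83 subunit genes fell, 0 of the 46 assembly factors fell and 1 rose (median -0.02). Of these factors, 5 were well above background in no OIR mouse of P12, and 3 in none of P17. Of 13 enzymes of the tricarboxylic acid cycle, which supplies the chain with NADH and succinate, 1 was lower on P17, Idh3a of isocitrate dehydrogenase (-0.27, adjusted p = 0.0415), and the median was -0.19. With slide as a block 0 of the 13 were called (median -0.12). Of 16 genes of electron carriers and their synthesis and 20 regulators of mitochondrial biogenesis, 0 passed (medians -9.3e-04 and -0.06). From P12 to P17 in OIR mice, 2 of the 13 cycle enzymes fell, 5 with slide as a block. All 13 changes were negative, from -0.49 to -0.06 (median -0.25). Over the same days 3 of the 16 carrier genes fell and 1 rose (median -0.11), and 0 of the 20 regulators passed (median 0.04). Over those days 1.49% of all probes fell, and 5.79% of those well above background on all arrays. Falls were thus called among cycle enzymes and carrier genes, and none among assembly factors or regulators. With slide as a block, falls were called for 1 assembly factor, 4 carrier genes and 2 regulators. Of 10 genes of respiration known to respond to hypoxia, Cox4i2 included, 4 were higher and 1 lower. The largest rise was in Ndufa4l2, a relative of Ndufa4 that is induced by hypoxia (2.03, SE 0.10, adjusted p = 1.82e-12), followed by Bnip3 (0.84), Fam162a (0.75) and Higd1a (0.54), and Iscu, the scaffold for iron-sulfur clusters, was lower (-0.23, adjusted p = 0.0363). On P28 Ndufa4l2 was the 1 gene of that list still higher (0.79, adjusted p = 8.18e-08).

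Cell type markers moved with the P17 groups, and their part in the falls of the respiratory chain genes was not tested. The mean log2 ratio over 10 rod markers ran from 4.05 to 6.22 in OIR mice (median 5.61) and from 4.48 to 5.99 in controls (median 5.60), and 0 of the 10 were called. Markers of cones (0 of 8 called) and of bipolar cells (0 of 8, median fold change -0.41) did not pass either, and neither did those of Mueller glia (0 of 7, median -0.38). Markers of reactive glia were higher, 7 of 8 called with a median fold change of 1.05, and their mean ran from -0.44 to 0.50 in OIR mice and from -1.29 to -0.70 in controls, with Serpina3n well above background in no control mouse. Also called higher were 3 of 8 microglial (median 0.33), 2 of 8 mural (median 0.28) and 2 of 8 red cell markers (median 0.41). Called lower were 1 of 8 amacrine (median -0.34), 1 of 9 ganglion (median -0.36), 1 of 8 pigment epithelium (median -0.33) and 1 of 8 lens markers (median -0.17). Called in either direction were 0 of 8 endothelial and 0 of 12 skeletal muscle markers. With slide as a block 2 of 7 Mueller glia, 1 of 8 bipolar and 2 of 9 ganglion markers were lower, 4 of 8 mural and 1 of 8 endothelial markers were higher, and 0 red cell and 0 pigment epithelium markers were called. Between P17 and P28, 8 of 10 rod markers fell in OIR mice (median -1.28) and 4 of 10 in controls (median -0.62), and 1 rose in each. Of all probes 19.4% fell in OIR mice and 5.38% in controls, and of those well above background on all arrays 32.1% and 13.8%. With slide as a block 4 of 10 rod markers fell in OIR mice (median -0.48) and 5 of 10 in controls (median -0.55).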

How the data were processed

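Arrays were Agilent SurePrint two-colour arrays read with Feature Extraction 10.7.3.1 by the authors, and the deposited values are background and spot intensity in each dye, with a deposited table of the log2 ratio of processed signals that equals log2 Cy3 over Cy5 (tolerance 0.001) for 100% of probes on each array. Per the labels, retina was Cy5, and per rod genes it was Cy3. Here median intensity was corrected by normexp (offset 50), which understates changes of dim probes, normalised by loess within arrays, and averaged over spots of a probe, and spots marked as outliers were left out (0.592 to 0.951% per array). limma 3.58.1 (R 4.3.3, data.table version 1.17.8) was fitted over 55681 non-control probes with Benjamini-Hochberg adjustment and called at an adjusted p under 0.05. OIR and control mice were compared per day, and changes with age and differences of OIR effects in 1 fit over 6 groups. The test was checked on simulated data, with noise independent between mice and changes larger than the called P17 falls. Slide, scan day and litter were not simulated, so the check does not cover them.

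The number of arrays limits the precision. Symbols came from RefSeq accessions, which named 28026 probes. The members and lists were chosen with earlier results of these data known. Genes named were, per comparison, the 5 largest called rises and falls, plus fixed isoforms and core subunits; Cox7c and Uqcrc2 were named after their values were seen. Other settings tried were the deposited ratio, raw signals without background subtraction, an offset of 0, slide (11 slides) as a block, array weights, trend and robust estimation, a filter on dim probes, the retina channel without the reference, quantile normalisation of average brightness, other groups in the fit, and the mean of all probes of a gene. Those on scan day were added after the data were seen. Shares of all probes called were not counted for these other settings. Mitochondrially encoded subunits were not analysed here, and the values of 1 member are not reported here. For 9 members (Atp5pb and Cox7c among those called on P17) RefSeq names pseudogenes that may share probe sequence.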

Additional observations from a re-analysis of the deposited data

Results flagged for a closer look

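For 3 genes the OIR effect differed between P12 and P17 by the interaction term of the limma fit. Cox4i2 changed by 0.8606 on the log2 scale (SE 0.2123, adjusted p = 0.0301), from -0.31 on P12 to 0.55 on P17. Ndufb3 changed by -0.3908 (SE 0.08835, adjusted p = 0.00986) and Ndufs1 by -0.3768 (SE 0.08375, adjusted p = 0.00807). With slide as a block the values were 0.78 (Cox4i2), -0.40 (Ndufb3) and -0.33 (Ndufs1), all called. Cox4i2 did not pass with no background subtraction (0.93), an offset of 0 (0.96), the deposited ratio (0.87, adjusted p = 0.331) or the retina channel alone (0.85), and Ndufb3 and Ndufs1 did not pass without scan day 4.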

How the results depend on the processing

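No paired analysis was possible because the mouse numbers in the labels are unique and no number is shared between groups. On P12 and P28 no member was called under any alternative run. For OIR against control on P17, 1 member was higher with slide as a block, array weights, the filter on dim probes, other groups in the fit and without scan day 4, and 6 were lower with other groups in the fit and without scan day 4. For controls from P12 to P17, 1 member was higher with no background subtraction, an offset of 0, the deposited ratio, slide or scan day as a block, array weights, the dim filter and the retina channel alone, and 9 were lower with array weights, 8 without scan day 4 and 2 in the retina channel alone. For controls from P17 to P28, 15 were lower with the deposited ratio and 8 in the retina channel alone, 20 were higher with array weights, and the median over members was -0.2287 within scan day 4. For OIR mice from P12 to P17, 58 were lower with slide as a block and 63 with array weights. For OIR mice from P17 to P28, 9 were lower with an offset of 0 and with the deposited ratio, 10 with slide as a block and 8 in the retina channel alone, while 16 were higher with slide as a block, 15 with scan day as a block and 54 in the retina channel alone, and the median over members was 0.2314 with the deposited ratio, 0.2851 in the retina channel alone and -0.0583 within scan day 4. For the change of the OIR effect from P12 to P17, 0 were higher with no background subtraction, an offset of 0, the deposited ratio and the retina channel alone, and 6 were lower with slide as a block, 15 with array weights and 0 without scan day 4. From P17 to P28 its count of members higher was 1 with no background subtraction, an offset of 0, the deposited ratio, the dim filter and the retina channel alone, 4 with array weights (1 lower) and 3 with other groups in the fit. Among single named genes, the values that turned were as follows. Cox6a2 in OIR mice from P17 to P28 was 0.04872 in the retina channel alone. On P17, Cox6b2 was 0.03124 with no background subtraction, 0.1404 with an offset of 0, 0.1567 with the deposited ratio and 0.07212 in the retina channel alone. Ndufs7 on P17 was -0.009737 with an offset of 0, -0.01308 with slide as a block, -0.02509 with array weights, -0.02728 in the retina channel alone and -0.01996 without scan day 4, where Ndufs3 was 0.05491. Cox4i2 on P28 was 0.07132 with slide and 0.08746 with scan day as a block. Of the values of single named genes under alternatives, 720 kept their direction and side of the threshold, 46 lost a call, 7 gained one and 13 turned sign, and the cause of these differences was not tested. The 720 include 62 under quantile normalisation of average brightness, which leaves log ratios as they are and so could not differ.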
